A study of Mus musculus with 34 samples.

Results

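The genes described here carry glucose into the cell, break it down to pyruvate, turn pyruvate into lactate and export it, or belong to the cell's response to low oxygen. They are 38 genes chosen by name: a gene counts where the gene-name column of the scanner files holds one of the chosen symbols, including Pkm2, the older symbol of the pyruvate kinase gene Pkm. All 38 had a probe above background and were among the 19348 genes tested across the 17 groups of arrays.

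Glycolysis runs from glucose uptake by the GLUT transporters (the Slc2a genes) through hexokinase, phosphofructokinase, aldolase and enolase to pyruvate kinase. Pyruvate is either reduced to lactate by lactate dehydrogenase and exported by monocarboxylate transporters (the Slc16a genes), or oxidised in mitochondria by pyruvate dehydrogenase, which the PDK kinases switch off. Several steps have an isoform typical of striated muscle, such as Slc2a4, Pfkm, Pgam2 and Eno3, beside a widely expressed one. The transcription factor HIF-1 raises many of these genes, with Vegfa, Bnip3, Car9, Egln3 and Ankrd37, when oxygen is low. The heart shifts after birth from glycolysis towards oxidation of fatty acids.

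All cells came from CD1 mice carrying aMHC-GFP, a fluorescent reporter driven by a cardiomyocyte promoter, so every group shares this genotype. Cardiac fibroblasts (neoCF) and cardiomyocytes (neoCM) were freshly isolated from pups at postnatal day 1.5. Induced cardiomyocytes (iCM) were made by infecting cardiac fibroblasts with a retrovirus that carries Mef2c, Gata4 and Tbx5 in a single transcript (MGT), and were collected at 4 weeks. Induced pluripotent stem cells were made from cardiac fibroblasts with Oct4, Sox2, Klf4 and cMyc, and 2 lines were differentiated into cardiomyocytes, collected on day 13 (iPSC1-CM D13), day 9 (iPSC2-CM D9) and, after longer culture of the latter line, day 29 (iPSC2-CM D29). Contractile iCM and iPSC-derived cells were grown in StemPro-34 medium with VEGF, bFGF and FGF10. A time course followed fibroblasts at day 0 (CF D0) and on days 3, 5, 7, 10 and 14 after infection with MGT or with a LacZ control virus. Each group had 2 arrays, and the labels name no cell sort and do not say whether the 2 arrays came from separate cultures, so p-values measure only the spread between these arrays.

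Single-colour Agilent arrays were read. A level below is the log2 of a probe's processed signal minus the array's 75th percentile, so 0 is the signal that 75% of spots do not exceed, and levels of different genes are not compared. A difference is between group means on this log2 scale, and a gene was called when it differed at least 2-fold with an adjusted p under 0.05 (limma, Benjamini-Hochberg over all genes tested). Of the 59305 non-control spots, 28715 to 44881 an array were well above background and none was saturated. The 38 genes had 59 probes, and 36 of the genes were well above background on every array. The exceptions were Slc2a4 and Pgk1, each on 1 of the 2 LacZ D14 arrays; the Pgk1 spot of that array was flagged as an outlier and left out, so its LacZ D14 value rests on 1 array. Replicate arrays correlated at 0.984 or more over all genes in 16 groups and at 0.895 in iPSC2-CM D29, where 17 of the 38 genes were at least 2-fold apart between the 2 arrays. Each gene's spread was estimated over all groups together, so this pair enters the SE of every comparison. It was far apart in genes such as Slc2a4, Pgam2, Pdk2, Aldoc, Eno2 and Car9, whose SEs are wide also where the compared arrays lie close. MGT and LacZ arrays of days 3 to 10 shared slides day by day, as did CF D0 with neoCF and LacZ D14, and the iPSC-derived groups with MGT D14. neoCF shared no slide with neoCM, iCM or the iPSC-derived groups, nor did iCM with the iPSC-derived groups or MGT D14, or the iPSC-derived groups with neoCM, and for those comparisons slide and group cannot be told apart. In these whole-culture samples, fewer cells of a type and less RNA per cell cannot be told apart.

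The samples differed in more than the cells named on their labels. The 8 cardiomyocyte markers checked (such as Myh6 and Tnnt2) had median levels of 7.75 to 7.89 in neoCM. Their medians were 6.72 to 7.06 in iPSC2-CM D9, 4.71 to 4.80 in iPSC1-CM D13 and 5.20 to 5.35 in iCM. In neoCF, labelled as fibroblasts, the median was 1.96 to 2.75 with all 8 well above background, against -0.20 to 0.00 in CF D0. Macrophage markers had medians of 4.06 to 4.07 in iCM and 4.59 to 4.91 in LacZ D14, against -5.86 to -5.03 in iPSC1-CM D13 and -5.45 to -4.15 in iPSC2-CM D9. Proliferation markers stood at -1.22 to -1.16 in iCM, 3.36 to 3.53 in iPSC1-CM D13 and 3.53 to 3.75 in iPSC2-CM D9. The part of these other cells in the results below was not tested.

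Across the 17 groups, 26 of the 38 genes had their highest group mean in an iPSC-derived group, 21 of them in iPSC2-CM D9. Another 8 peaked in neoCM. The lowest mean lay in neoCF for 15 genes, in CF D0 for 10 and in iCM for 5. None of the 38 peaked in iCM. These counts were not made over all genes tested, so no share stands beside them.

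The range of group means shows how much the remaining genes, not given array by array, varied. Among transporters and hexokinases it ran for Slc2a1 from 2.21 in neoCM to 6.59 in iPSC2-CM D9, Hk1 from 3.61 in neoCF to 5.94 in iPSC2-CM D9. The isomerase and the phosphofructokinases other than Pfkm gave Gpi1 from 5.94 in neoCF to 8.07 in iPSC2-CM D9, Pfkl from 0.40 in CF D0 to 3.29 in iPSC1-CM D13, Pfkp from 0.72 in neoCF to 5.30 in iPSC2-CM D9. The enzymes that set the level of the phosphofructokinase activator gave Pfkfb1 from -0.93 in MGT D10 to 1.75 in iPSC2-CM D9, Pfkfb2 from -1.80 in LacZ D5 to -1.02 in neoCM, Pfkfb4 from -0.69 in iPSC2-CM D9 to 1.01 in LacZ D14. For the steps that split and isomerise the sugar the range was Aldoa from 6.37 in neoCF to 9.09 in iPSC2-CM D9, Tpi1 from 4.22 in neoCF to 7.46 in iPSC2-CM D9. In lower glycolysis it was Gapdh from 7.00 in neoCF to 8.53 in iPSC2-CM D9, Pgk1 from 4.64 in neoCF to 8.46 in iPSC2-CM D9, Pgam1 from 4.72 in neoCF to 7.76 in iPSC2-CM D9. The last steps gave Eno1 from 5.70 in neoCF to 7.90 in iPSC2-CM D9, Eno2 from -0.39 in MGT D10 to 4.94 in iPSC2-CM D9, Pkm2 from 3.93 in neoCF to 6.93 in iPSC2-CM D9. For the other lactate genes it was Ldhb from 0.05 in CF D0 to 6.82 in neoCM, Slc16a1 from -3.41 in iCM to -0.90 in LacZ D14. Around pyruvate dehydrogenase it was Pdk1 from -2.45 in CF D0 to 3.57 in iPSC2-CM D9, Pdk3 from 0.53 in neoCF to 2.73 in iPSC2-CM D9, Pdha1 from 2.23 in neoCF to 4.11 in neoCM. In the low-oxygen response it was Hif1a from 1.56 in neoCF to 3.38 in MGT D7, Egln3 from 0.74 in neoCF to 3.90 in MGT D5, Bnip3 from 2.53 in CF D0 to 7.55 in iPSC2-CM D9, Vegfa from 1.75 in iCM to 4.80 in iPSC1-CM D13. Slc2a4 went from -3.36 in LacZ D14 to 4.08 in neoCM.

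**Figure D1:**
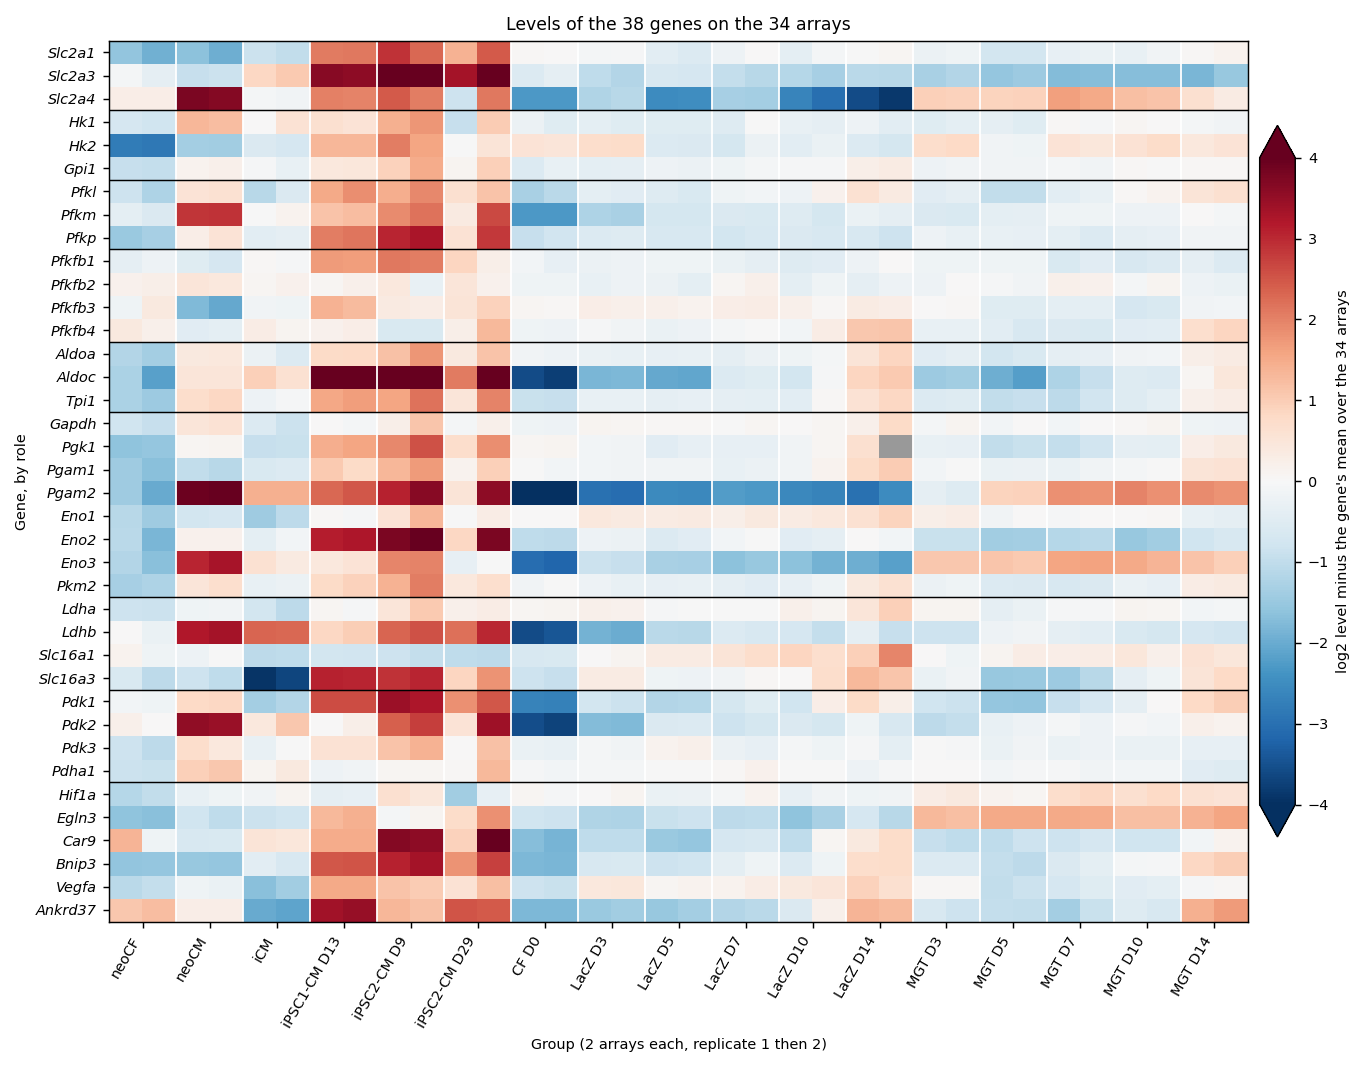
Levels of the 38 genes (rows, grouped by role, black lines between roles) on the 34 arrays (columns, 2 for each group), each as the log2 level minus the gene's mean over the 34 arrays. Colours are cut at -4 and 4, and the grey cell is the Pgk1 spot left out; most genes are darkest red in the iPSC-derived groups, while the muscle isoforms Slc2a4, Pfkm, Pgam2 and Eno3 are darkest in neoCM.

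The promoters of 6 genes are shown because the results return to them: Pgam2 and Eno3, muscle isoforms that MGT raised, and Egln3, Slc16a3, Bnip3 and Ankrd37, of the low-oxygen response and lactate export. Each is the 250 bases before the start of transcription in RefSeq's annotation of mouse build GRCm38.p6, written in the direction of the gene. Capitals mark the core sites bound by HIF, ACGTG or GCGTG on either strand, or, in Pgam2, the MEF2 motif.
Pgam2 (chr11:5803797-5804046, minus strand): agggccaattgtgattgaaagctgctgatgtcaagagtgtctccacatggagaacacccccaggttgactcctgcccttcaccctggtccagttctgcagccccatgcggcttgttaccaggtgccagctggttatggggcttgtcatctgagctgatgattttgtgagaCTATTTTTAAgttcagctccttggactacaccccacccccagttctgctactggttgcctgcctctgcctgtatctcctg
Eno3 (chr11:70656926-70657175, plus strand): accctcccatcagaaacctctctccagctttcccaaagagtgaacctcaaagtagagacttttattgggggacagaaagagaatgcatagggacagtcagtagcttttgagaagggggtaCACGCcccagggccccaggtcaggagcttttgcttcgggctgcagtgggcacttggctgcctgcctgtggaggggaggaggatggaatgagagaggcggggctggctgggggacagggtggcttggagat
Egln3 (chr12:54203875-54204124, minus strand): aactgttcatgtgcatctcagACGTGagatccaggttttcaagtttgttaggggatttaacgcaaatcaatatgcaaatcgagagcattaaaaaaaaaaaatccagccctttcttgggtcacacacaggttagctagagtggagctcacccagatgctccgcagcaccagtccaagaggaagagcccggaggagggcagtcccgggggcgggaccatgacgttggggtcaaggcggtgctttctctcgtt
Slc16a3 (chr11:120948817-120949066, plus strand): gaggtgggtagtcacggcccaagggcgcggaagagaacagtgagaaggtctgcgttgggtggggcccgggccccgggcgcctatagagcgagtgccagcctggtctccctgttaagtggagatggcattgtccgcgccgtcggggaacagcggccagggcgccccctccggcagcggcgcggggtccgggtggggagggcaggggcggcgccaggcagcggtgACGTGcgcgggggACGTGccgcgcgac
Bnip3 (chr7:138909507-138909756, minus strand): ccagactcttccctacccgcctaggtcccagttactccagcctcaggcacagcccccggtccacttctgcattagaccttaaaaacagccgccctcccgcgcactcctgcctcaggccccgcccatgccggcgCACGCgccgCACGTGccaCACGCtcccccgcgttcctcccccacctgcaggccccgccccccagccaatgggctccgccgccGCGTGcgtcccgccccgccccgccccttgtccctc
Ankrd37 (chr8:45999851-46000100, minus strand): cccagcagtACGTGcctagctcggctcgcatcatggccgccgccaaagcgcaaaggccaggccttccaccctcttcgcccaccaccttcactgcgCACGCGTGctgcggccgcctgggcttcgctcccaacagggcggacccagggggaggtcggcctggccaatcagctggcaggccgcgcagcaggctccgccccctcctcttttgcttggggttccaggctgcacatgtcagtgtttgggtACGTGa

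Promoters were listed for 36 of the 38 genes, all but Slc2a3 and Slc2a4, with 56 start sites in all. ACGTG or GCGTG stood in 75% of these 56 windows and in 38.6% of all 32851 windows of the same length; for ACGTG alone the shares were 42.9% and 16.6%, and for GCGTG alone 50% and 28.2%. The palindrome CACGTG matches ACGTG on both strands, as in Bnip3, and overlapping sites in Ankrd37 hold GCGTG on both strands. Bnip3 and Ankrd37 carried several matches, Slc16a3 a pair of ACGTG starting 27 and 14 bases before the start, and Egln3 a single ACGTG starting 229 bases before it. MEF2 motifs were in 2.92% of all windows and 3.57% of the 56, those of Pgam2 and Pfkfb1. In Pgam2 the match spanned bases 80 to 71 before the start and read on both strands. A match is a stretch of letters and says nothing of binding.

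The first comparison asks what separates the cardiomyocytes of the newborn heart from its fibroblasts. neoCM were higher in all 3 phosphofructokinases, in all 3 genes of the aldolase step and in 6 of the 8 genes of lower glycolysis, most of all in Pgam2 and Eno3. Of the 38 genes, 20 were called higher and 1 lower, where 31.7% of all genes tested were called (15.4% higher and 16.3% lower), and their median difference was 1.26 against -0.06 over all genes. Fibroblast marker medians were 5.64 to 5.76 in neoCM, with all 7 markers well above background, and 6.77 to 6.98 in neoCF. Markers of other cells also differed: erythroid medians were 6.75 to 6.82 in neoCM and 2.60 to 2.88 in neoCF, macrophage -2.02 to -1.95 and 2.45 to 3.00, and endothelial -0.97 to -0.83 and 2.29 to 2.34. Smooth muscle medians were 6.59 to 6.73 in neoCM and 3.22 to 3.49 in neoCF. Their part was not tested. Pgam2, the muscle phosphoglycerate mutase, was at 6.37 and 6.54 in neoCM and 1.02 and 0.43 in neoCF, a difference of 5.73 (SE 0.53, adjusted p = 3.49e-08). Eno3, the muscle enolase, was at 6.92 and 7.16 against 2.71 and 2.21, higher by 4.59 (SE 0.15, adjusted p = 8.58e-14). For both genes, the neoCM arrays lay several units above the neoCF arrays, far beyond the gap between replicates.

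Slc2a4, the insulin-responsive glucose transporter GLUT4, was higher in neoCM by 3.44 (SE 0.50, adjusted p = 1.07e-05). The differences of the ubiquitous transporter Slc2a1 (-0.05) and of Slc2a3 (-0.66) were not called. Pfkm, the muscle phosphofructokinase, was at 5.15 and 5.17 in neoCM and 1.88 and 1.71 in neoCF, and its difference of 3.36 stood beside 1.61 for the liver form Pfkl and 1.81 for the platelet form Pfkp. Pdk2, a kinase that inhibits pyruvate dehydrogenase, was at 3.49 and 3.39 against 0.13 and -0.05, higher by 3.40 (SE 0.49, adjusted p = 1.12e-05). Ldhb, the lactate dehydrogenase of heart muscle, differed by 3.38, while Ldha at 7.33 and 7.36 against 6.69 and 6.65 was not called. Pdha1, the catalytic subunit that the PDK kinases act on, differed by 1.88.

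Pfkfb3, which makes the activator of phosphofructokinase, was the only 1 of the 38 genes called lower in neoCM. It was at 0.38 and 0.10 there and 2.00 and 2.55 in neoCF, a difference of -2.04 (SE 0.14, adjusted p = 1.15e-09). None of the 6 low-oxygen response genes and neither lactate exporter, Slc16a1 or Slc16a3, was called. Slc16a3 stood at 2.48 and 2.29 in neoCM and 2.70 and 2.25 in neoCF, where the arrays overlapped. Car9, a cell-surface carbonic anhydrase, was at -0.33 and -1.86 in neoCF, so its own replicates there were more than 1 unit apart. With CF D0 in place of neoCF, the counts against neoCM were 15 higher and 3 lower, where 22.4% of all genes were called higher and 22.8% lower.

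The next question was how cardiomyocytes made through pluripotent cells compare with natural ones. Against neoCM, iPSC-CM (the mean of iPSC1-CM D13 and iPSC2-CM D9) were higher in glucose uptake by Slc2a1 and Slc2a3, in lactate export by Slc16a3 and in 5 of the 6 low-oxygen response genes, and lower in the muscle isoforms Slc2a4 and Eno3. Among the 38 genes, 19 were called higher and 7 lower, where 38% of all genes were called (19.6% higher and 18.3% lower). The median difference was 1.04, against 0.10 over all genes. Fibroblast marker medians were 5.64 to 5.76 in neoCM, 3.14 to 3.23 in iPSC1-CM D13 and -2.17 to -1.29 in iPSC2-CM D9. Erythroid medians were 6.75 to 6.82, -7.91 to -7.53 and -5.81 to -5.33 in the same order. Their part was not tested. With iPSC2-CM D9 alone the counts were 21 higher and 2 lower, and with iPSC1-CM D13 alone 18 and 7. This split by line was added after the data were seen, and no share of all genes is given beside it.

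Slc2a3, a transporter of high affinity for glucose best known from neurons and embryonic cells, was at -0.59 and -0.53 in neoCM, 3.96 and 3.90 in iPSC1-CM D13 and 6.45 and 6.73 in iPSC2-CM D9. Its difference was 5.82 (SE 0.16, adjusted p = 7.6e-16). Bnip3, a mitochondrial protein that promotes mitophagy, differed by 4.38 (SE 0.17, adjusted p = 7.38e-14). Aldoc, the aldolase of brain, was at 1.93 and 1.94, 5.44 and 5.75 and 6.48 and 6.71 in the same order of groups, higher by 4.16 (SE 0.45, adjusted p = 1.52e-07). Slc16a3, the exporter MCT4 of highly glycolytic cells, was at 6.38 and 6.35 in iPSC1-CM D13 and 6.19 and 6.35 in iPSC2-CM D9, and the difference from neoCM was 3.93. Every iPSC-CM array lay above every neoCM array for these 4 genes, which were picked from those called and so would mostly do so.

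In the same comparison Slc2a4, Pfkm, Pgam2 and Eno3 were called lower while other isoforms of their steps were higher, whereas Hk2, the hexokinase of muscle, was higher by 2.95 and Hk1, at -0.19, was not called. Eno3 differed by -1.94 (SE 0.13, adjusted p = 3.01e-10) while the neuronal enolase Eno2 differed by 3.37 and Eno1 by 1.18. Slc2a4 differed by -1.60 (SE 0.43, adjusted p = 0.00335), against 4.13 for Slc2a1. Pdk2 differed by -2.15 (SE 0.43, adjusted p = 0.000229), against 2.17 for Pdk1, the kinase induced by HIF-1. Ldhb was lower, with a difference of -1.60 (SE 0.17, adjusted p = 1.64e-07). Of the 7 genes called lower, Slc2a4 and Eno3 were also called with iPSC2-CM D9 alone. Pfkm (-0.85), Pgam2 (-0.65), Pdk2 (-0.92), Ldhb (-0.83) and Pdha1 (-0.92) were not, so their calls rest on iPSC1-CM D13. Ldha itself depended on the probe: its 3 probes gave differences from 0.55 to 3.39.

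**Figure D2:**
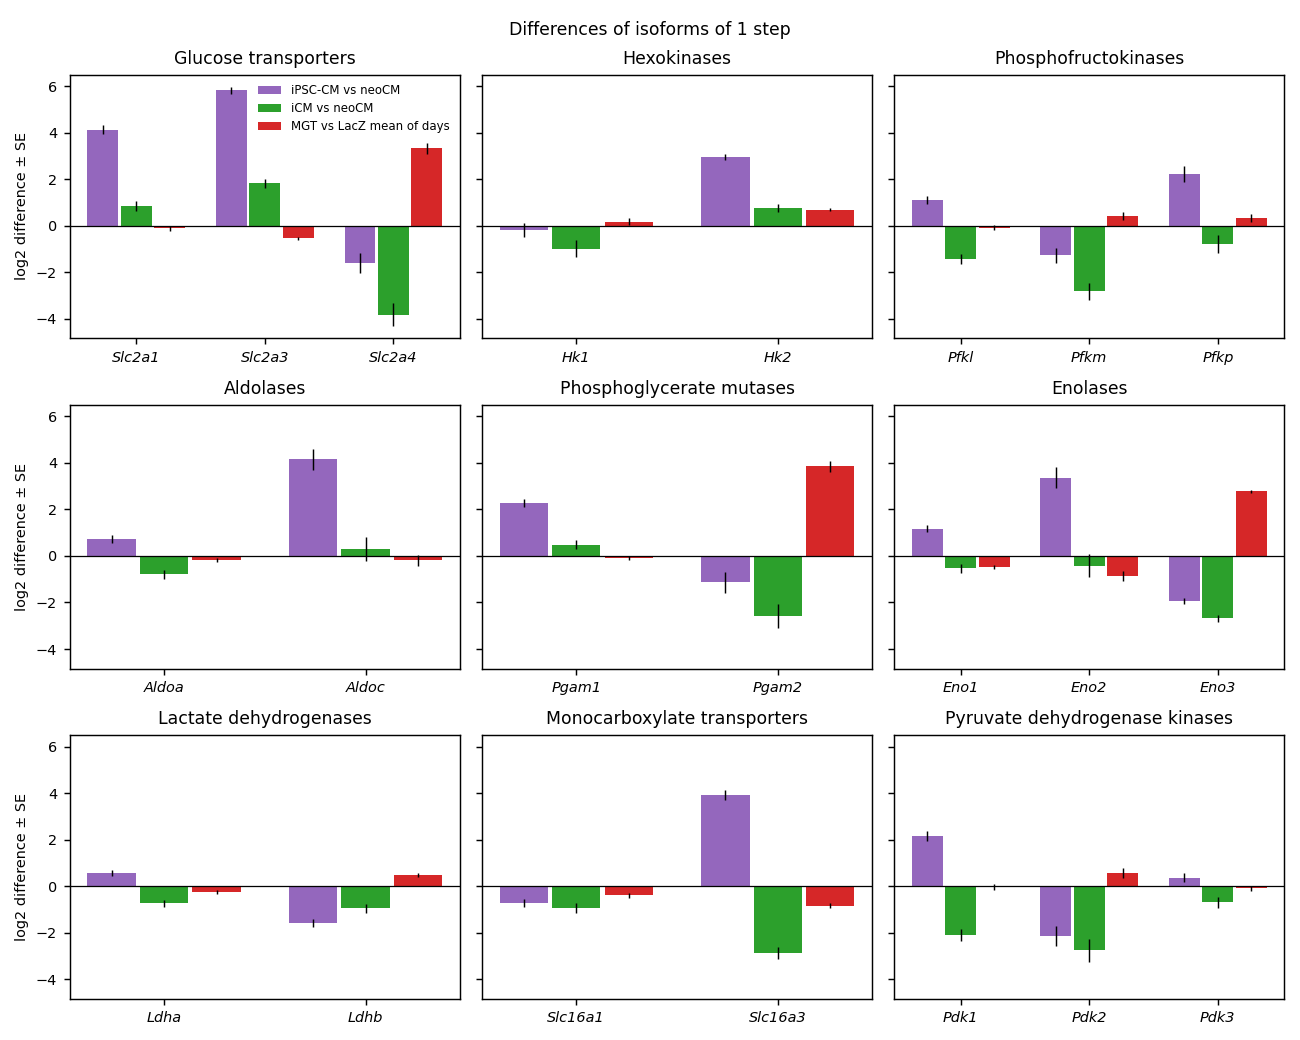
Isoforms that serve the same step, as bars of the log2 difference with its standard error in 3 comparisons: iPSC-CM minus neoCM (purple), iCM minus neoCM (green) and MGT minus LacZ averaged over 5 days (red). Slc2a4, Pfkm, Pgam2, Eno3 and Pdk2 are below 0 in the purple and green bars, and Slc2a4, Pgam2 and Eno3 stand out in the red.

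Against the fibroblasts, iPSC-CM were higher in 33 of the 38 genes and lower in none, where 37.1% of all genes were called (18.4% higher). All 6 low-oxygen response genes were among the 33, with a median difference of 2.14, and 3 of the 4 genes of lactate. Car9 was at -0.20 and -0.19 in iPSC1-CM D13, 1.99 and 1.89 in iPSC2-CM D9 and -0.33 and -1.86 in neoCF. Ankrd37, a small HIF-1 target, was at 3.02 and 3.12 in iPSC1-CM D13 but 0.98 and 0.81 in iPSC2-CM D9, which overlapped neoCF at 0.72 and 0.87. Under the scale used here the median of all genes was 0.20 above neoCF in iPSC-CM and -0.22 in iCM against iPSC-CM, and the differences of the 38 genes are to be read against these shifts.

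iCM, made without a pluripotent stage, were then set against natural cardiomyocytes. They were lower in Slc2a4, Pfkm, Pgam2 and Eno3 and in 2 of the 6 low-oxygen response genes (Vegfa and Ankrd37), and no member of the glycolytic chain itself from hexokinase to pyruvate kinase was called higher. The counts were 2 higher and 12 lower of 38, where 38.9% of all genes were called (18.2% higher and 20.7% lower), with a median of -0.77 against -0.05 over all genes. Marker medians differed too: macrophage 4.06 to 4.07 in iCM and -2.02 to -1.95 in neoCM, proliferation -1.22 to -1.16 and 2.27 to 2.37, and erythroid -6.49 to -6.29 and 6.75 to 6.82. Their part was not tested. Slc2a4 differed by -3.83 (SE 0.50, adjusted p = 2.07e-06). Slc16a3 was at -0.62 and -0.36 in iCM and 2.48 and 2.29 in neoCM, a difference of -2.88 (SE 0.24, adjusted p = 6.43e-09). Pfkm was at 2.26 and 2.42 in iCM, lower, with a difference of -2.82 (SE 0.38, adjusted p = 3.37e-06). Pdk2 was at 0.35 and 1.02 in iCM, lower, with a difference of -2.75 (SE 0.49, adjusted p = 8.92e-05).

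Slc2a3, at 1.15 and 1.36 in iCM against -0.59 and -0.53 in neoCM, and Pfkfb3, at 2.01 and 1.98 against 0.38 and 0.10, were the 2 genes called higher, by 1.82 (SE 0.19, adjusted p = 1e-07) and 1.76 (SE 0.14, adjusted p = 4.43e-09). No iCM array overlapped a neoCM array for either gene, which adds little to their calls, and the 2 Pfkfb3 probes gave 0.94 and 1.76. Fitted with the slide as a block, which 1 shared slide allows, the counts were 3 higher and 14 lower.

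Set against neoCF, iCM had 14 of the 38 genes higher and 4 lower, where 37% of all genes were called (16.8% higher and 20.1% lower). Pgam2 was at 3.87 and 3.86 in iCM, higher than in neoCF by 3.14 (SE 0.53, adjusted p = 4.84e-05). Aldoc at 2.39 and 2.06 and 0.17 and -0.72 differed by 2.50 (SE 0.52, adjusted p = 0.000398), Ldhb by 2.42 (SE 0.20, adjusted p = 5.88e-09) and Hk2 at 1.87 and 1.75 and -0.35 and -0.43 by 2.20 (SE 0.17, adjusted p = 1.83e-09). The 4 genes called lower were Ankrd37 (-3.22, SE 0.18, adjusted p = 4.05e-11), Slc16a3 (-2.96, SE 0.24, adjusted p = 5.43e-09), Pdk1 (-1.13, SE 0.25, adjusted p = 0.00083) and Slc16a1 (-1.04, SE 0.20, adjusted p = 0.000222). This comparison depended on the scale and on the fibroblasts chosen. With the authors' log2 values 9 were higher and 2 lower, with Pdk1 and Slc16a1 no longer called. Slc16a1 also lost its call without neoCF replicate 1 (-0.88). Against CF D0 instead of neoCF, Pdk1 was higher in iCM by 1.40 and Hk2 lower, with a difference of -1.14, both reversed, and Ankrd37 (-0.27) and Slc16a1 (-0.42) were no longer called.

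The direct comparison of the routes found no gene of the 38 called higher in iCM than in iPSC-CM and 27 called lower, where 26.2% of all genes were called lower (46.8% in either direction). The median difference was -1.63 against -0.22 over all genes. All 3 glucose transporters, all 3 phosphofructokinases and 5 of the 6 low-oxygen response genes were among the 27. Beside Slc16a3 the lowest were Ankrd37, at -2.37 and -2.47 in iCM, with -4.40 (SE 0.16, adjusted p = 2.07e-14), and Pdk1 with -4.25 (SE 0.22, adjusted p = 2.5e-12). Ldhb, Pdha1, Pfkfb2 and Pfkfb4 lay above 0, between 0.03 and 0.64, and none was called. Hif1a itself differed by -0.13 and was not called. With iPSC1-CM D13 alone 23 genes were lower and 1 higher, and with iPSC2-CM D9 alone 30 were lower and none higher. The shares of all genes with each line alone are not given here, so the counts of the lines are not compared. The macrophage and proliferation marker medians given above also differed between these groups. So did fibroblast marker medians, at 5.33 to 5.37 in iCM, 3.14 to 3.23 in iPSC1-CM D13 and -2.17 to -1.29 in iPSC2-CM D9. The part of these markers was not tested.

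MGT D14 and iPSC1-CM D13, collected at nearly the same day and read on the same slide, gave 18 genes lower and 1 higher in MGT D14, where 33.7% of all genes were called (17.4% lower). Slc2a3 was at -1.51 and -1.18 in MGT D14, a difference of -5.27 (SE 0.19, adjusted p = 2.96e-14). Eno2 with -3.90, Aldoc with -3.87 and Slc16a3 with -2.39 followed. Slc16a1, the widely expressed exporter MCT1, was the gene called higher, by 1.25 (SE 0.20, adjusted p = 3.16e-05). Macrophage marker medians were 4.05 to 4.09 in MGT D14 and -5.86 to -5.03 in iPSC1-CM D13. In the same order, fibroblast medians were 5.33 to 5.54 and 3.14 to 3.23, and proliferation medians 1.61 to 1.66 and 3.36 to 3.53. Their part was not tested.

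**Figure D3:**
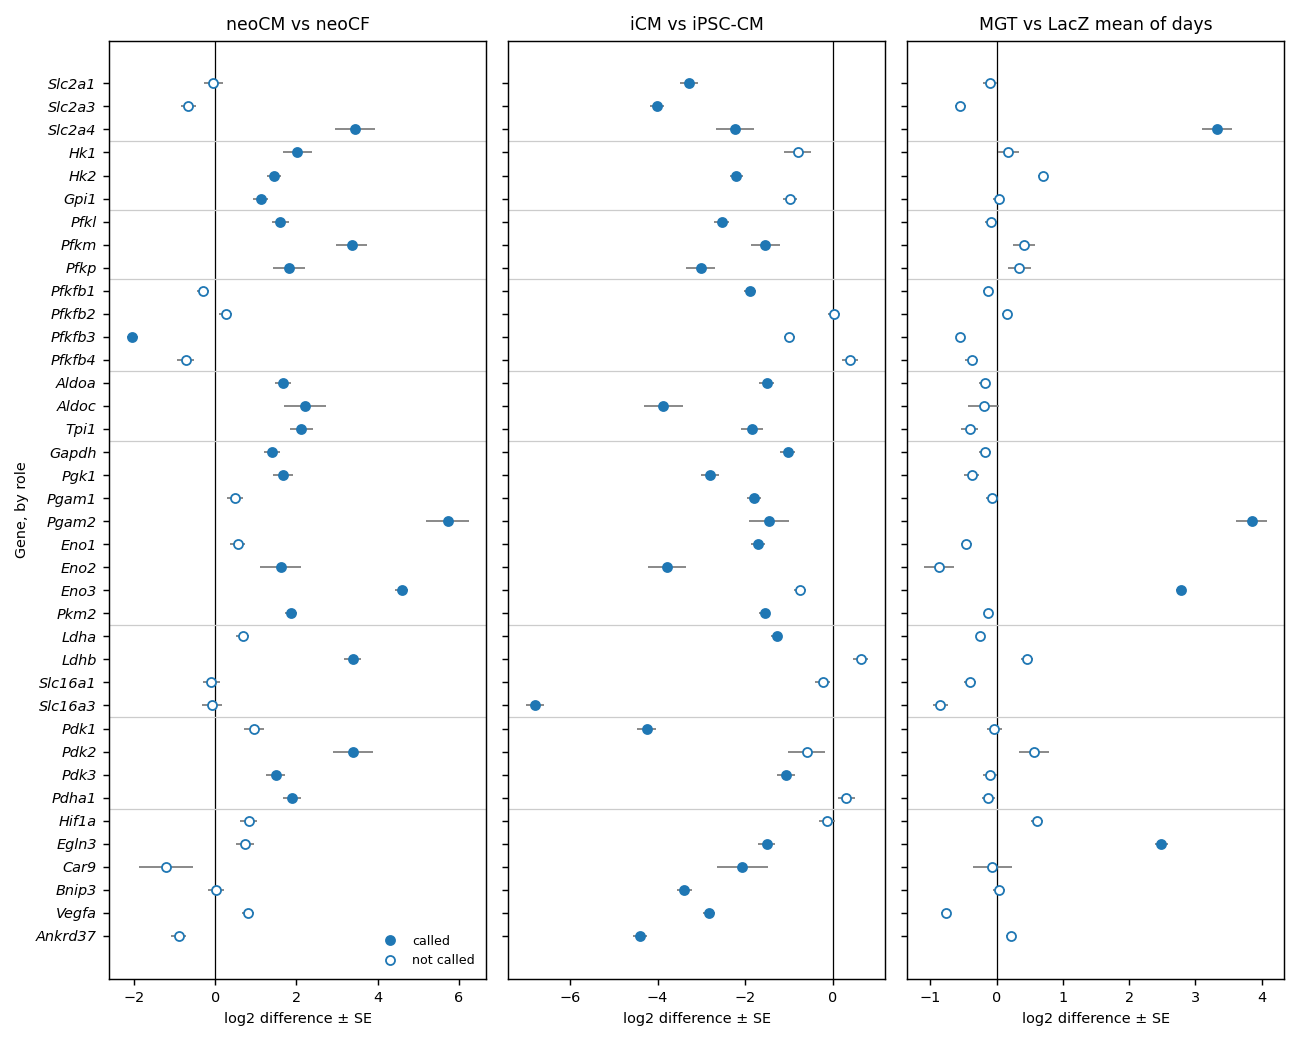
Log2 differences with standard errors of the 38 genes (rows, by role) in neoCM minus neoCF, iCM minus iPSC-CM, and MGT minus LacZ averaged over the 5 days; filled points were called, open points were not. The panels hold 21, 27 and 4 filled points, with different horizontal scales.

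The time course asks what the 3 factors did to these genes as fibroblasts were converted. MGT raised 4 of the 38 genes, Slc2a4, Pgam2, Eno3 and Egln3, on each of the 5 days. Over the mean of the days 4 were called higher and none lower, where 10.6% of all genes were called (5.62% higher and 4.94% lower). In either direction the 4 calls are near the share of all genes. The median of the 38 was -0.09, against -0.10 over all genes. On no day were 29 of the 38 called. Neither count across days was made for all genes. On day 3, 5 were higher, where 5.04% of all genes were called and 3.19% higher. On day 5, 4 were higher and 2 lower, where 8.26% were called, 4.97% higher and 3.3% lower. On day 7, 4 were higher and 1 lower, where 8.78% were called, 5.31% higher and 3.47% lower. On day 10, 4 were higher, where 8.65% were called and 5.26% higher. On day 14, 5 were higher and 1 lower, where 13.2% were called, 5.86% higher and 7.31% lower. Between days 3 and 10 the effect itself changed in 2 of the 38, 1 upward and 1 downward, where 1.97% of all genes were called, 1.39% upward and 0.589% downward. The downward gene, Ankrd37 (-1.10), lost its call in 7 of the 8 fits that left out 1 array, and stood at -0.70 without LacZ D10 replicate 2.

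Pgam2 was at -1.88 and -1.97 in CF D0. In MGT cultures it stood at 2.10 and 1.94 on day 3, 3.35 and 3.37 on day 5, 4.28 and 4.25 on day 7, 4.43 and 4.26 on day 10 and 4.34 and 4.23 on day 14. In LacZ cultures it stood at -0.54 and -0.59, -0.09 and -0.12, 0.22 and 0.15, -0.13 and -0.22 and -0.54 and -0.08 on the same days. The lowest MGT array was thus well above the highest LacZ array, and the difference went from 2.59 (SE 0.53, adjusted p = 0.00269) on day 3 to 4.59 (SE 0.53, adjusted p = 2.45e-06) on day 14. Its widely expressed partner Pgam1 differed by -0.07 over the mean of days, which was not called.

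Eno3 was at 0.84 and 0.69 in CF D0. With MGT it stood at 4.96 and 4.96 on day 3, 4.98 and 4.93 on day 5, 5.44 and 5.49 on day 7, 5.40 and 5.23 on day 10 and 5.03 and 4.83 on day 14. With LacZ it stood at 3.02 and 2.95, 2.59 and 2.54, 2.23 and 2.35, 2.24 and 1.98 and 1.91 and 1.69. The MGT arrays stayed between 4.83 and 5.49 from day 3 on, while the LacZ arrays were lowest on day 14. The difference was 1.97 (SE 0.15, adjusted p = 3.3e-08) on day 3 and 3.21 (SE 0.15, adjusted p = 1.04e-11) on day 10, and it grew by 1.23 (SE 0.22, adjusted p = 0.00244) between them. Over the mean of days it was 2.78 (SE 0.07, adjusted p = 3.79e-17), against -0.46 for Eno1 and -0.86 for Eno2, neither called. Cardiomyocyte marker medians were 2.09 to 2.25 with MGT and -0.85 to -0.78 with LacZ on day 3. On day 10 they were 4.88 to 5.00 and -3.35 to -2.95, and their part was not tested.

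Slc2a4 ranged from 0.70 to 2.00 on the 10 MGT arrays and from -3.50 to -0.75 on the 10 LacZ arrays, with a mean difference of 3.33 (SE 0.22, adjusted p = 2.42e-10). Its day 3 call was lost when any single day 3 array was left out, at differences from 2.04 to 2.13. The day 3 arrays were at 1.30 and 1.29 with MGT and -0.84 and -0.75 with LacZ. The SE is shared by all groups, including iPSC2-CM D29, where Slc2a4 was at -0.47 and 2.48. Egln3, the prolyl hydroxylase PHD3 that marks HIF for destruction and is itself induced by it, ranged from 3.58 to 3.96 with MGT and from 0.77 to 1.71 with LacZ. Its mean difference was 2.48 (SE 0.10, adjusted p = 7.83e-14), and it did not change by a called amount between days 3 and 10. Of the other low-oxygen response genes none was called over the mean of days: Bnip3 differed by 0.04, Car9 by -0.06, Ankrd37 by 0.22, Vegfa by -0.77, and Hif1a by 0.61.

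Called on single days were Ldhb on day 3 (1.11, SE 0.20, adjusted p = 0.000816), Hk2 on day 14 (1.09, SE 0.17, adjusted p = 7.48e-05), and, lower, Slc16a3 on days 5 (-1.32, SE 0.24, adjusted p = 0.00065) and 7 (-1.23, SE 0.24, adjusted p = 0.00116), Vegfa on day 5 (-1.02, SE 0.15, adjusted p = 7.52e-05) and Eno1 on day 14 (-1.07, SE 0.18, adjusted p = 0.000256). Slc16a3 was at 1.78 and 1.83 with MGT and 3.15 and 3.11 with LacZ on day 5, and at 1.85 and 2.20 and 3.17 and 3.35 on day 7. Hk2 was at 2.85 and 2.97 with MGT and 1.90 and 1.73 with LacZ on day 14. It was at 2.98 and 2.89 against 1.73 and 2.19 on day 7 and 3.00 and 3.16 against 2.00 and 2.18 on day 10. Its difference was above 0 on all 5 days and just under 2-fold on days 7 and 10, so the threshold sets its single day. The MGT and LacZ arrays did not overlap in the 6 called comparisons, which adds little because the genes were picked by their calls. The Vegfa and Eno1 calls were lost with the authors' log2 values, which leaves 4 higher and 1 lower on day 5 and 5 and none on day 14; MGT D14 and LacZ D14 shared no slide. Vegfa also lost its call without MGT D5 replicate 1 (-0.95) or LacZ D5 replicate 2 (-0.99), and Eno1 without LacZ D14 replicate 2 (-0.92). Macrophage marker medians on day 14 were 4.05 to 4.09 with MGT and 4.59 to 4.91 with LacZ.

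**Figure D4:**
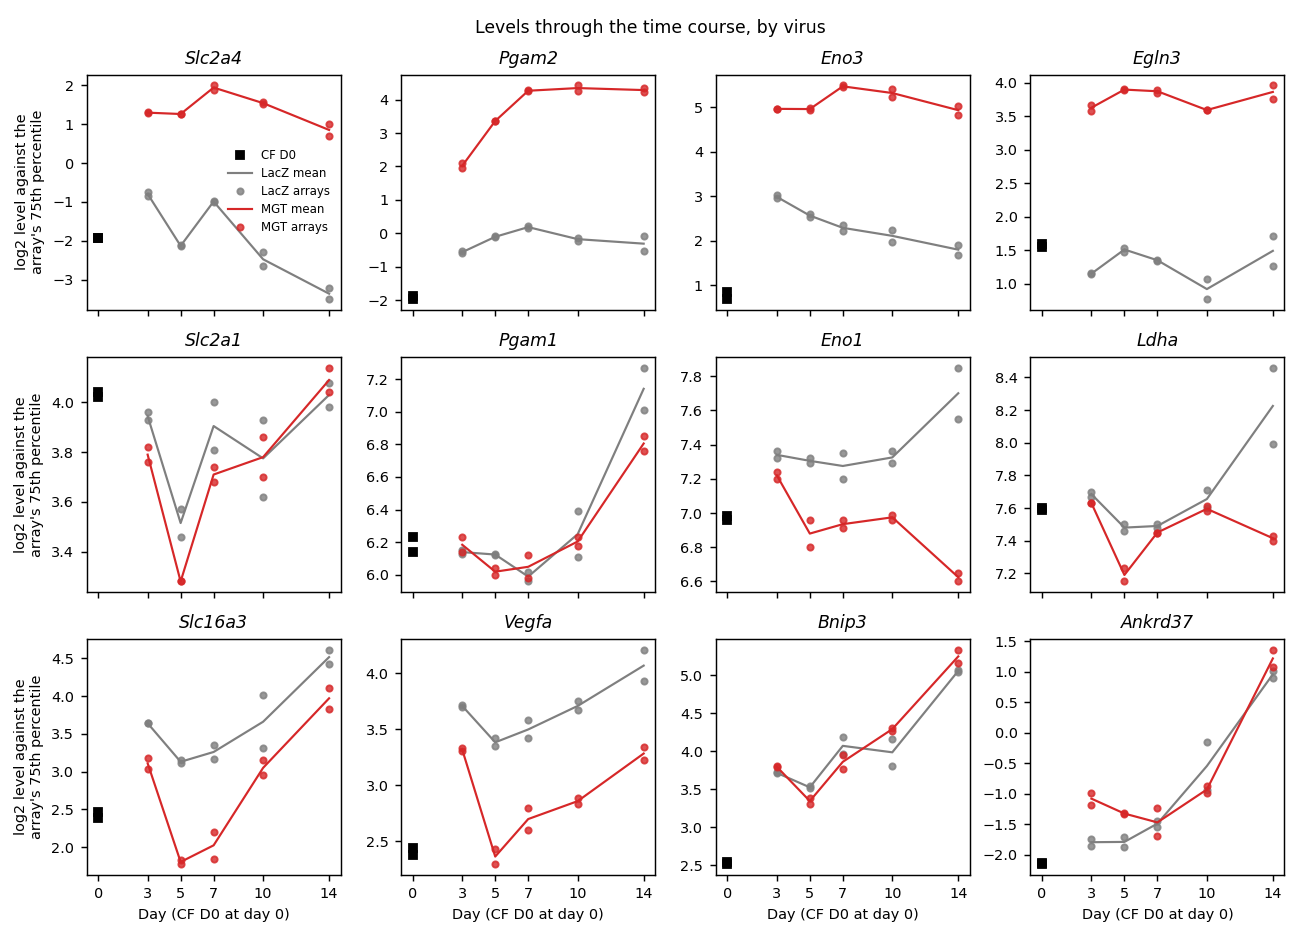
Levels of 12 genes (log2 against the array's 75th percentile) by day, with points for arrays, lines through the means of MGT (red) and LacZ (grey), and squares for CF D0. Pgam2, Eno3, Slc2a4 and Egln3 are apart from day 3 on, whereas Bnip3 and Ankrd37 are highest on day 14 in both arms.

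The LacZ cultures show how these genes moved without the factors. Between CF D0 and LacZ D14, which shared a slide, 16 were called higher and 2 lower, where 27.7% of all genes were called (15.6% higher); the median was 0.79 against 0.09 over all genes. Aldoc was at -2.14 and -2.33 in CF D0 and 2.30 and 2.50 in LacZ D14, a difference of 4.63 (SE 0.52, adjusted p = 4.65e-07). Pdk2 was at -3.61 and -3.77 and -0.23 and -0.71, higher by 3.22 (SE 0.49, adjusted p = 2.32e-05). The 2 Pdk2 probes gave 1.57 and 3.22. Pdk1 differed by 3.18 (SE 0.25, adjusted p = 4.95e-09). Ankrd37 was at -2.15 and -2.14 in CF D0, -1.85 and -1.74, -1.87 and -1.71, -1.54 and -1.44 and -0.94 and -0.15 on days 3, 5, 7 and 10, and 1.02 and 0.90 on day 14, in all 3.11 (SE 0.18, adjusted p = 8.48e-11). Its day 14 arrays lay above those of all earlier days.

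In the low-oxygen group 4 of 6 genes were called higher, and in the lactate group 3 of 4. Car9 went from -3.39 and -3.55 to -1.29 and -0.95, Slc16a3 from 2.47 and 2.38 to 4.61 and 4.42, and Bnip3 by 2.52. Pfkm went from -0.02 and -0.02 to 2.00 and 1.93. Lower were Slc2a4 (-1.42, SE 0.50, adjusted p = 0.0241), a call lost without any of 3 of the 4 arrays, and Hk2, which went from 2.99 and 2.91 to 1.90 and 1.73 (-1.13, SE 0.17, adjusted p = 1.47e-05). Ldha went from 7.59 and 7.60 to 7.99 and 8.46 and was not called. Macrophage marker medians were -0.13 to -0.09 in CF D0 against 4.59 to 4.91 in LacZ D14. Cardiomyocyte marker medians were -0.20 to 0.00 against -3.96 to -3.54. The part of either in these differences was not tested.

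CF D0 and neoCF, both labelled as cardiac fibroblasts, differed in 18 of the 38 genes, 8 higher and 10 lower in CF D0, where 34.4% of all genes were called. Hk2 was at 2.99 and 2.91 in CF D0 and -0.35 and -0.43 in neoCF, higher by 3.34 (SE 0.17, adjusted p = 4.69e-12). Slc2a1 followed with 1.77 (SE 0.23, adjusted p = 2.58e-06), Pgk1 with 1.67 (SE 0.24, adjusted p = 1.18e-05) and Pgam1 with 1.47 (SE 0.19, adjusted p = 2.15e-06). Pdk2 was lower, with a difference of -3.73 (SE 0.49, adjusted p = 3e-06), as were Ldhb with -3.39 (SE 0.20, adjusted p = 4.45e-11), Ankrd37 with -2.95 (SE 0.18, adjusted p = 1.08e-10) and Pgam2 with -2.65 (SE 0.53, adjusted p = 0.000289). The 2 Pdk2 probes gave -3.73 and -1.62. Pfkfb3 at 2.24 and 2.20 in CF D0 was not called. The split depended on the scale, with 3 higher and 10 lower under the authors' log2 values and Pgam1 no longer called. Cardiomyocyte markers were also lower in CF D0, as given above, and their part in the lower Pgam2 was not tested.

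Between day 14 and 4 weeks of the direct route, iCM against MGT D14, 2 of the 38 genes were called higher and 12 lower, where 20.4% of all genes were called (8.69% higher and 11.7% lower); the median was -0.57 against -0.07 over all genes. Slc16a3 was at 3.83 and 4.11 in MGT D14 and -0.62 and -0.36 in iCM, a difference of -4.46 (SE 0.24, adjusted p = 1.14e-10). Ankrd37 was at 1.08 and 1.36 and -2.37 and -2.47, lower, with a difference of -3.64 (SE 0.18, adjusted p = 4.87e-11). Egln3, raised by MGT on all 5 days, was lower in iCM, with a difference of -2.31 (SE 0.22, adjusted p = 1.63e-07), as was Pdk1, with -2.16 (SE 0.25, adjusted p = 2.03e-06). Ldhb was higher in iCM by 3.02 (SE 0.20, adjusted p = 1.23e-09) and Slc2a3 by 2.60 (SE 0.19, adjusted p = 3.81e-09). Pgam2 and Eno3 were not called, at -0.42 and -0.57. Proliferation marker medians were 1.61 to 1.66 in MGT D14 and -1.22 to -1.16 in iCM, and the labels give the StemPro-34 medium for contractile iCM only; neither was tested as part of these differences.

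The 2 iPSC lines, which also differ in day, were not alike in these genes: 3 of 38 were called higher and 7 lower in iPSC1-CM D13 than in iPSC2-CM D9, where 21.3% of all genes were called (12% higher and 9.33% lower). Lower were Slc2a3 (-2.66, SE 0.19, adjusted p = 1.37e-09), Pdk2 (-2.46, SE 0.49, adjusted p = 0.000565), Car9 (-2.13, SE 0.67, adjusted p = 0.0156) and Ldhb (-1.54, SE 0.20, adjusted p = 4.73e-06). Pdk2 was at -0.06 and 0.18 in iPSC1-CM D13 and 2.33 and 2.71 in iPSC2-CM D9. Higher were Ankrd37 (2.18, SE 0.18, adjusted p = 1.88e-08), Egln3 (1.35, SE 0.22, adjusted p = 7.27e-05) and Pfkfb3 (1.00, SE 0.14, adjusted p = 1.69e-05). Car9 missed the threshold without any single array of the 4, at differences from -2.18 to -2.09. Its SE also holds the spread of iPSC2-CM D29, at -0.76 and 2.83, and of neoCF, at -0.33 and -1.86. Pfkfb3 lost its call with the mean of its probes (0.50), whose second probe gave 0.00, under quantile scaling (0.98), and without iPSC1-CM D13 replicate 1 (0.93) or iPSC2-CM D9 replicate 2 (0.97). Fibroblast marker medians were 3.14 to 3.23 in iPSC1-CM D13 and -2.17 to -1.29 in iPSC2-CM D9, and their part was not tested.

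Longer culture of the iPSC2 line gave no firm result. Against day 9, 3 genes were called higher and 13 lower on day 29, where 24.3% of all genes were called (14.7% higher and 9.61% lower), but none of the 38 was called when the fit held only these 4 arrays or weighted arrays by their spread. The 2 day 29 arrays stood apart from each other: Aldoc was at 3.53 and 6.36, Pgam2 at 2.96 and 6.02, Pdk2 at 0.49 and 3.33 and Car9 at -0.76 and 2.83. Replicate 1 was the lower of the pair for each. Without replicate 1 there were 4 higher and 6 lower, and without replicate 2 there were 1 higher and 26 lower. Slc2a3, at 3.65 and 4.47 on day 29 and 6.45 and 6.73 on day 9, and Slc16a3, at 4.17 and 5.11 and 6.19 and 6.35, were lower on both day 29 arrays than on either day 9 array. Ankrd37, at 2.16 and 2.11 against 0.98 and 0.81, was higher on both. The day 29 arrays also differed from each other in marker medians, given here as the lower then the higher array, not in replicate order. They differed most in endoderm markers (-6.65 and 3.14). Fibroblast (-2.22 and 4.06), proliferation (-2.43 and 3.01) and endothelial markers (-6.19 and -2.57) differed too. The part of these markers was not tested.

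Over the 17 group means, as a description and with no test, Pgam2 ran most closely with Eno3 (r = 0.92) and Slc2a4 also with Eno3 (r = 0.90). Pfkm ran with Pdk2 (r = 0.96), Ldhb with Pdk2 (r = 0.95), Aldoa with Pkm2 (r = 0.97), Slc16a3 with Vegfa (r = 0.93) and Pdk1 with Pfkl (r = 0.94). Slc16a1 ran against most of the others, with a median r of -0.29, and Hif1a with few, with a median r of 0.06. All these points share arrays, so a difference between arrays enters both genes of a pair.

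Genes of neighbouring pathways, from lists drawn up by name, were counted in the same fit. Among 16 genes of glycogen metabolism, 9 were higher and 1 lower in neoCM than in neoCF, where 15.4% of all genes were higher and 16.3% lower, led by Pygm, the muscle glycogen phosphorylase (4.86, SE 0.66, adjusted p = 4.74e-06). MGT raised 4 and lowered 1 of them over the mean of days, where 5.62% of all genes were higher and 4.94% lower. Ppp1r3c, which targets protein phosphatase 1 to glycogen, differed by 6.76 (SE 0.11, adjusted p = 9.03e-20) and Pygm by 2.37 (SE 0.29, adjusted p = 1.85e-06), while the glycogen-binding Stbd1 differed by -1.17 (SE 0.19, adjusted p = 5.99e-05). Of 11 genes of pyruvate oxidation, 9 were higher and none lower in neoCM than in neoCF, against the same 15.4% and 16.3% of all genes, led by Pdk4 (2.83, SE 0.22, adjusted p = 2.89e-09) and Dlat (2.62, SE 0.16, adjusted p = 1.55e-10), a core subunit of pyruvate dehydrogenase. Pdk4, a PDK kinase known as a target of fatty acid signals, was higher with MGT by 1.68 (SE 0.10, adjusted p = 2.36e-11) and higher in iCM than in iPSC-CM by 3.33 (SE 0.19, adjusted p = 8.93e-12).

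Of 8 pentose phosphate genes, none was called between MGT and LacZ over the mean of days, and 5 were higher in CF D0 than in neoCF, where 16.3% of all genes were higher. In iCM against iPSC-CM, 20.7% of all genes were higher and 26.2% lower; 2 of the 8 were higher, near that share, H6pd (4.39, SE 0.26, adjusted p = 1.87e-11) and G6pdx (1.85, SE 0.21, adjusted p = 2.31e-07). A further 29 low-oxygen response genes (Gys1 is also in the glycogen list) gave 6 higher and 13 lower in that comparison, the share higher being that of all genes. Car12, a carbonic anhydrase, differed by -5.70 (SE 0.21, adjusted p = 2.79e-14) and Ak3l1, a mitochondrial adenylate kinase, by -4.27 (SE 0.22, adjusted p = 2.66e-12), while Lox, which cross-links collagen, differed by 5.65 (SE 0.31, adjusted p = 6.52e-12) and Epas1, which encodes HIF-2 alpha, by 4.07 (SE 0.16, adjusted p = 6.48e-14). With MGT over the mean of days 1 of the 29 was higher, Stc2 (1.73, SE 0.12, adjusted p = 4.24e-10), and 4 were lower, led by Ddit4 (-1.47, SE 0.15, adjusted p = 9.16e-08) and Car12 (-1.37, SE 0.11, adjusted p = 3.82e-09). Of 20 other glycolysis genes, 8 were higher and 2 lower in iCM than in iPSC-CM, against the 20.7% and 26.2% of all genes. Gpd1, which diverts carbon from glycolysis to glycerol phosphate, led with 7.05 (SE 0.25, adjusted p = 1.34e-14). Between MGT D14 and iCM, Gpd1 differed by 5.91 (SE 0.29, adjusted p = 2.46e-11) and Hif3a, an inhibitor of HIF signalling, by 7.02 (SE 0.32, adjusted p = 1.25e-11).

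Gapdh has many near-identical processed copies in the mouse genome, and its 7 probes gave differences from 1.18 to 3.29 in iPSC-CM against neoCF, so its values are uncertain. The 2 probes of Pfkp gave 0.51 and 2.22 in iPSC-CM against neoCM, and -1.08 and 0.33 between the iPSC lines. No gene of the 38 with more than 1 probe had probes that moved at least 2-fold in opposite directions in any comparison. Simulated data over 19348 genes took their spread from these arrays. Known changes were put into a small part of the genes, and all others had no difference. Calls were made for 67% of genes with a log2 change of 1.5 and 94% with a log2 change of 3 in iCM against iPSC-CM. In MGT against LacZ on day 7 they were made for 63% and 89%. In the data 46.8% of all genes were called in iCM against iPSC-CM, which changes the adjustment, so these shares do not carry over to the data. A gene not called may still differ.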

How the data were processed

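The deposited intensity values are Agilent Feature Extraction 10.7.3.1 processed signals (Cy3, 1 colour), background-adjusted and detrended by the authors within each array, per the file headers. Probe positions are given on mm9, per the file headers. The authors' log2 table has a median of 7.49 to 7.52 on every array and correlates with the log2 processed signal at 0.982 or more; its scaling is not given in the sources used here, and it was used as an alternative. The submitters' processing notes name limma, with no version.

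Here log2 processed signal minus the array's 75th percentile was used, without control and outlier spots. A probe was kept where both arrays of any 1 group measured it well above background (43361, of which 25447 name a gene), and the probe with the highest mean stood for its gene. One limma 3.58.1 fit in R 4.3.3 held all 34 arrays (17 residual degrees of freedom), with Benjamini-Hochberg adjustment over all genes and calls at an adjusted p under 0.05 and 2-fold. The fit was tested on simulated data. Alternatives changed the scaling, background, filter, probe choice, array weights, slide, reference, fit and arrays included.

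The 38 genes and the other lists were chosen with earlier results of these data known. Values on every array are given for up to 12 genes with the widest range in their role, plus Ldha, and at most the 4 highest and 4 lowest called genes of a comparison are named with statistics. Same-numbered arrays did not deviate together (136 pairs, r from -0.13 to 0.18, 8 over 0.1), so replicate numbers were not treated as pairs. The number of arrays, 2 a group, limits the precision.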

Additional observations from a re-analysis of the deposited data

Results flagged for a closer look

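The MGT effect on 2 genes differed between days 3 and 10 by a test of that difference. The Eno3 effect was 1.23 larger on day 10 than on day 3 on the log2 scale (limma, adjusted p = 0.0024), and that of Ankrd37 was lower by -1.1 (limma, adjusted p = 0.026). The Ankrd37 call was lost in 7 of the 8 fits that left out 1 array, under normexp with quantile scaling, with the authors' log2 values and in the separate fit (adjusted p from 0.0569 to 0.133). Without LacZ D10 replicate 2 the difference was -0.70.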

How the results depend on the processing

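Of 1609 alternative values for 104 named gene and comparison pairs, 1542 kept direction and call, 65 kept direction but missed the threshold and 2 reversed: with CF D0 in place of neoCF, Pdk1 in iCM became 1.40 and Hk2 -1.14. Apart from CF D0 in place of neoCF, counts under alternatives are given without the share of all genes in that setting. They show only how a count moved. Counts of called genes moved by over 1.5 times as follows, and the cause was not tested. iCM against neoCF fell from 18 to 11 under normexp with quantile scaling and to 11 with the authors' log2 values. The day 10 minus day 3 count went from 2 to 1 under normexp with quantile scaling and to 4 with array weights. iPSC2-CM D29 against D9 went from 16 to 0 in a separate fit and to 0 with array weights. Other total counts moved by less than that. Among these, CF D0 against neoCF went from 8 higher and 10 lower to 3 and 10 under quantile scaling. Quantile scaling also gave 1 gene higher and 24 lower in iCM against iPSC-CM, where the main scale gave 0 and 27. The median of all genes in iPSC-CM against neoCF was 0.20 and became 0.02 under normexp with quantile scaling. The replicate block gave 266 calls with and 266 without it, the same 266, and changed no call.

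Leaving out 1 array at a time, the lowest and highest counts were 20 to 21 for neoCM against neoCF, 31 to 33 for iPSC-CM against neoCF, 13 to 15 for iCM against neoCF, 16 to 18 for CF D0 against neoCF, 24 to 26 for iPSC-CM against neoCM, 14 to 17 for iCM against neoCM. They were 26 to 28 for iCM against iPSC-CM, 13 to 14 for iCM against MGT D14, 7 to 14 for iPSC1-CM D13 against iPSC2-CM D9, 16 to 19 for MGT D14 against iPSC1-CM D13, 10 to 27 for iPSC2-CM D29 against D9, 15 to 19 for LacZ D14 against CF D0. For the rest they were 4 to 4 for MGT against LacZ mean of days, 4 to 4 for MGT against LacZ D3, 1 to 2 for MGT against LacZ on day 10 minus day 3, 5 to 6 for MGT against LacZ D5, 5 to 6 for MGT against LacZ D7, 4 to 6 for MGT against LacZ D10, 5 to 8 for MGT against LacZ D14. D29 against D9 had 10 without D29 replicate 1 and 27 without D29 replicate 2.

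With 2 arrays a group, smaller differences go uncalled, and dim genes near background are the least certain.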
